A study of Mus musculus with 8 samples.

Results

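Partial hepatectomy (PHx, surgery that takes away part of the liver) is a standard way to set off liver regeneration in mice. Bulk ATAC-Seq measures where chromatin is open, because the Tn5 transposase cuts exposed DNA and the cut sites pile up into peaks. The regions described here are 260 stretches of the mouse genome that stood among the 50000 strongest peaks of every library taken 48, 72 or 96 hours after PHx and among the 50000 strongest peaks of neither library from undamaged liver at 0 hours. They are 260 of 73721 consensus regions (0.353%), and they are called gained regions below. They were chosen by the peak lists themselves, on the −log10 p that the peak caller gave each peak, so their lower place at 0 hours is how they were selected and not a result.

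The 8 libraries came from hepatocytes of C57BL/6 mice aged 10-12 weeks on normal diet, isolated from the liver by collagenase perfusion, with 2 libraries for each of 0 (undamaged liver), 48, 72 and 96 hours. The animals carried no transgene or deletion named by the labels, and the study's methods describe male C57BL/6J mice. The study's methods describe hepatocytes from several mice at each time, and 3 biological replicates of bulk ATAC-Seq at 0 and 48 hours, of which 2 per time were analysed here. The labels do not tie each library to a mouse. The full lists held 105185 to 154545 distinct peaks, and rank 50000 fell at a −log10 p of 8.05 to 15.2. No read counts were used, so depth is unknown and no counting interval is given for a peak. A peak within 1 kb of the start site stood in the kept lists for 7 of 8 hepatocyte markers in each 0 hour library and for 4 to 6 of 8 after PHx, with the *Alb* start site lacking such a peak in every library but 0 h replicate 1. Macrophage markers had such a peak at 0 of 8 start sites in every library and endothelial markers at 0 or 1 of 8. The stellate or fibroblast list had 4 or 5 of 8, the cholangiocyte list 2 or 3 of 6 and the lymphocyte or red cell list 2 of 6. The list of 72 h replicate 2 lacks the sequencing-run tag that the names of the other 7 lists share, and without this library the rule found 312 regions. The 0 hour libraries weighed more, since leaving out 0 h replicate 1 gave 1470 regions and leaving out 0 h replicate 2 gave 621.

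Open chromatin away from start sites mostly marks enhancers, which hold short motifs for transcription factors. In liver, HNF4, FOXA, HNF1 and C/EBP factors bind the enhancers of hepatocyte genes, and AP-1 (Fos and Jun proteins) is induced early after PHx. CTCF is of a different kind: it binds a long motif at insulators and loop anchors in nearly all cell types, and with cohesin it sets the borders of chromatin domains.

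Of the 19 motifs searched, CTCF differed most in percentage points between the gained regions and all consensus regions. A match to its 11-base core stood in the 200 bp around the summit in 43 of the 260 gained regions (16.5%), against 9.37% of all consensus regions, 11.4% of the 5018 regions covered in any 6 of the 8 lists and 2.01% of the 399 regions with the opposite pattern (covered in both 0 hour lists and in none after PHx). Matches to the 9-base HNF4 pattern went the other way, with 15 gained regions (5.77%), 10.1% of all regions and 14.3% of the regions lost after PHx. Regions are not replicates of a condition, so these shares are given as a description with no test. With all peaks kept in place of 50000, which gave 386 other regions, the CTCF share was 8.55% against 3.15% of the 315711 consensus regions of that setting. Where at least 50% of a region had to be covered the HNF4 share was 10.7% against 10.1%, the reverse direction.

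The CTCF matches are shown for the 8 gained regions with such a match that stood highest in their weakest list after PHx. Each line gives the nearest protein-coding gene, the position in the mouse build GRCm38 (mm10) and 31 bases written 5′ to 3′ on the strand of the match, with the match in capitals and 10 bases on either side.
4932414N04Rik, chr2:68744788-68744818, + strand: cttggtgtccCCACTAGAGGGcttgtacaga
Gbe1, chr16:70568783-70568813, - strand: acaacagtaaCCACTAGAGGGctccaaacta
Umodl1, chr17:31019713-31019743, + strand: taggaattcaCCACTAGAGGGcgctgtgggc
H2afy2, chr10:61877981-61878011, + strand: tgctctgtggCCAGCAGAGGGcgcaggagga
Podxl, chr6:31639647-31639677, - strand: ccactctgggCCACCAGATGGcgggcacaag
Acot12, chr13:91648491-91648521, - strand: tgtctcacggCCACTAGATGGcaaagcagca
Cog3, chr14:75722178-75722208, - strand: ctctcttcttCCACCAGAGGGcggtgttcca
Col12a1, chr9:79723277-79723307, - strand: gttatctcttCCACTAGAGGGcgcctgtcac

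In 4 of these 8 regions the matched letters were the same, CCACTAGAGGG. The match near *Gbe1*, the glycogen branching enzyme gene, lay in its intron with its centre 4 bp from the summit. The region near *H2afy2* lay in an intron of *Col13a1*, a collagen gene, the region near *Acot12* in an intron of *Ssbp2*, and the regions near *Umodl1* and *Col12a1* were intergenic. Over all 43 gained regions with a match, the centre of the nearest match fell within 25 bp of the summit in 31 (72.1%), at a median distance of 16.0 bp. Over the 6909 consensus regions with a match this share was 68.7% and the median again 16.0 bp. A position this close to the summit was less frequent for the other motifs, with 29.4% for AP-1 and 40.0% for HNF4 in the gained regions.

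The *Gbe1* region ranked 52619 and 56776 in the full lists of the 0 hour libraries, where rank 1 is the strongest peak. After PHx it ranked 26806 and 19279 at 48 hours, 35672 and 18607 at 72 hours, and 17589 and 18154 at 96 hours. The fold enrichment, the peak's height over the local background, was 6.55 and 5.26 at 0 hours, 7.20 and 8.82 at 48 hours, 8.05 and 9.86 at 72 hours, and 10.8 and 9.54 at 96 hours, so the values after PHx did not overlap those before. The region near *Podxl*, which encodes the sialomucin podocalyxin, lay deeper in the 0 hour lists, at ranks 77507 and 71490, and ranked 19243 to 39502 after PHx. Its fold enrichment was 4.27 and 4.20 at 0 hours and 5.84 to 11.4 in the 6 later libraries. The *Acot12* region was not listed at all in 0 h replicate 2, ranked 54947 in 0 h replicate 1, and ranked 13482 to 36883 after PHx. These ranks describe how the regions met the rule. Fold enrichments of single regions are given as deposited, with no normalisation between libraries.

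Gained regions with and without a CTCF match had similar ranks, which the rule selected on. With a match, the median rank was 56407 and 59921 in the 0 hour libraries and 29929 to 37417 in the later ones, against 57189 and 62390, and 30196 to 35134, for the 217 regions without a match, and it was better with a match in 3 of the 6 later libraries. Regions with a match lay at promoters in 2 cases, in introns in 21 and between genes in 13, while 34 of the 217 regions without a match lay at promoters. The distance to the nearest protein-coding start site was alike, with a median of 29356 bp against 29143 bp.

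The CTCF share was also read at like base composition. Consensus regions were split into 3 parts by the GC content of the window, and the share of gained regions with a match was 12.3% in the lowest part, 24.5% in the middle and 9.41% in the highest, against 9.70%, 11.6% and 6.89% of all consensus regions. Against regions covered in 6 of 8 lists, the shares of which were 10.7%, 13.3% and 9.54%, the gained regions were higher in the middle part (27 of 110 with a match), little higher in the lowest and not higher in the highest. HNF4 matches were fewer in the gained regions in all 3 parts, at 6.15%, 8.18% and 2.35% against 13.1%, 11.7% and 5.65%.

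**Figure D1:**
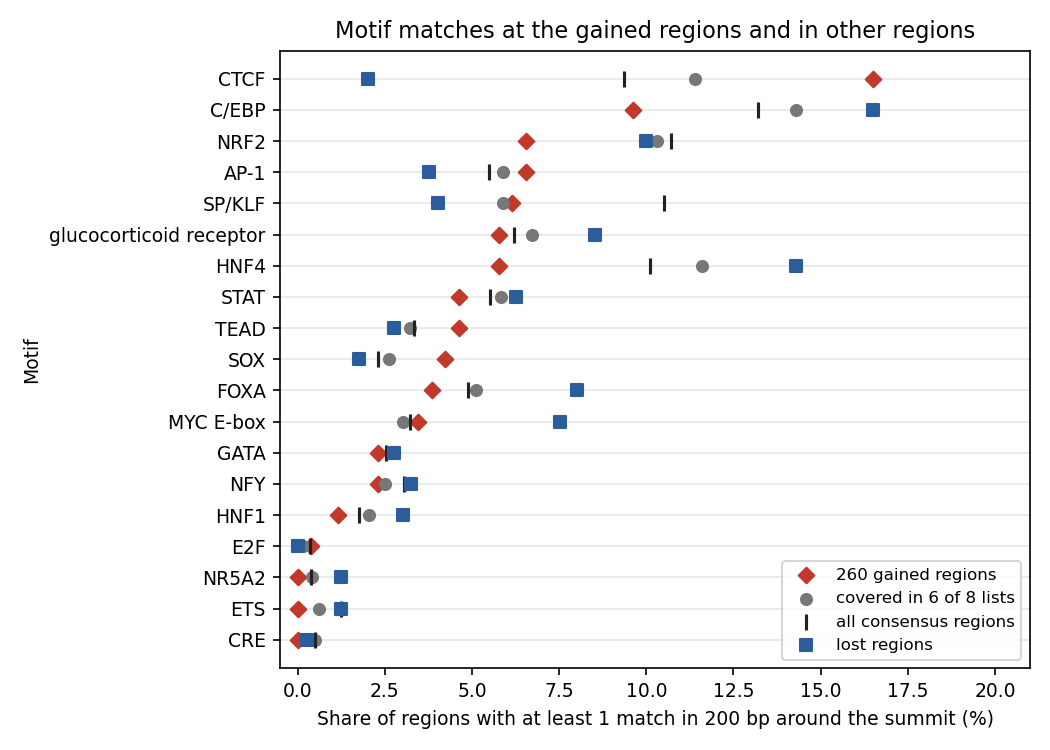
Share of regions (%, horizontal axis) with at least 1 match to each of 19 motifs in 200 bp around the summit, for the 260 gained regions (red diamonds), the regions covered in 6 of 8 lists (grey circles), all 73721 consensus regions (black bars) and the 399 lost regions (blue squares). CTCF stands at 16.5% in the gained regions and 2.01% in the lost regions, and HNF4 at 5.77% and 14.3%.

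The ranks of CTCF sites could also be read in regions that the rule did not pick. Among the 28523 regions covered in all 8 lists, the 2713 with a CTCF match had a median rank of 19585 and 22266 at 0 hours. After PHx the median was 14874 and 14173 at 48 hours, 17651 and 16628 at 72 hours, and 15250 and 18652 at 96 hours, with no overlap between the libraries before and after PHx. The 2336 regions with an HNF4 match moved the opposite way, from 16343 and 15269 at 0 hours to 17140 to 19107 after PHx, again with no overlap. Regions with neither match had medians of 13819 and 13951 before and 14226 to 14608 after, also without overlap. Ranks are relative, so a class that moves up pushes others down, and they come from lists that differ in length and whose depth is unknown. These medians were compared after the shares above were known and are given without a test.

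**Figure D2:**
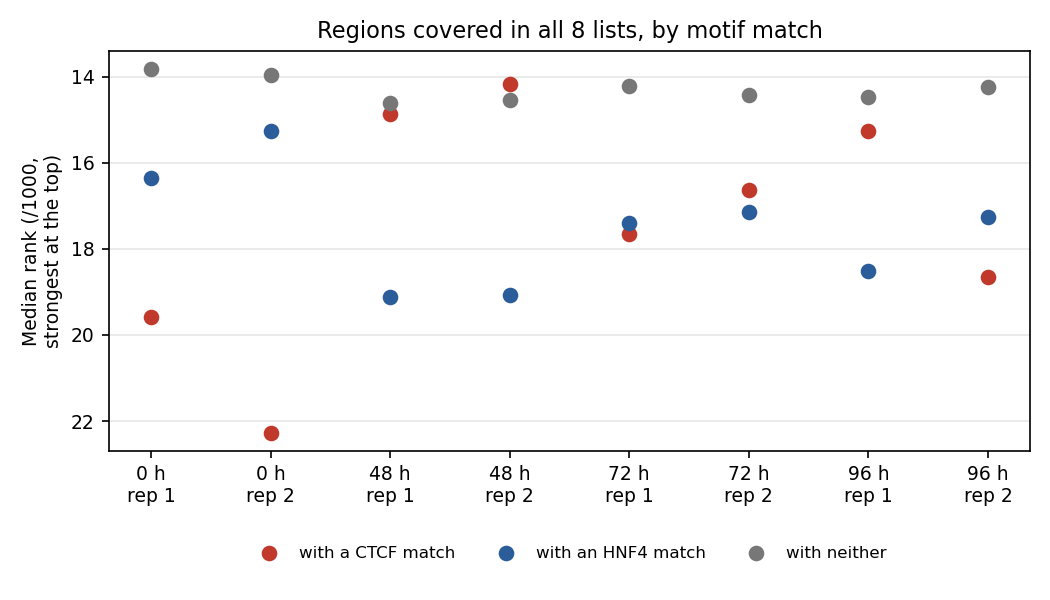
Median rank (divided by 1000 on the axis, strongest at the top) in each of the 8 libraries of regions covered in all 8 lists, for the 2713 with a CTCF match (red), the 2336 with an HNF4 match (blue, a region with both counts in each) and the 23614 with neither (grey). The red points lie at 19585 and 22266 at 0 hours and between 14173 and 18652 after PHx.

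Of the motifs of hepatocyte factors, none was more frequent in the gained regions than in open chromatin at large. C/EBP (TTNNGCAA) matched 25 (9.62%, against 13.2% of all regions and 16.5% of the lost regions), FOXA (TGTTTAC) 10 (3.85%, against 4.88% and 8.02%) and HNF1 (GTTAATNAT) 3 (1.15%, against 1.76% and 3.01%). With HNF4 (CAAAGNNCA) these 4 motifs reached 47 of the 260 regions. AP-1 (TGAGTCA) matched 17 (6.54%), against 5.49% of all regions and 5.88% of regions covered in 6 of 8 lists. With q under 0.05 this share was 10.1% against 5.42% of all regions, with all peaks 9.33% against 5.16%, and with 25000 peaks 4.02% against 5.23%, so its direction depended on the peaks kept. SOX (AACAATG) matched 11 (4.23%, against 2.30% of all regions, as a ratio a difference at least as large as that of CTCF) and TEAD (CATTCCA), the motif of the Hippo pathway's DNA-binding partners, 12 (4.62%, against 3.33%). NRF2 (TGACNNNGC), the oxidative stress motif, matched 17 (6.54%, against 10.7%), and 3 regions held both an AP-1 and an NRF2 match. SP/KLF (GGGCGGG) matched 16 (6.15%, against 10.5%). The patterns CRE (TGACGTCA), ETS (CCGGAAGT) and NR5A2 (TCAAGGTCA) matched no gained region, which says only that these letters were not in the windows. All patterns were searched on both strands, and 108 gained regions held none of the 19.

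The AP-1 matches are shown in 2 of the gained regions with such a match that stood high in every list after PHx, as 200 bases around the summit on the + strand of GRCm38, with the matches of any of the 19 motifs in capitals.
Creb3l1, chr2:92004710-92004909, + strand: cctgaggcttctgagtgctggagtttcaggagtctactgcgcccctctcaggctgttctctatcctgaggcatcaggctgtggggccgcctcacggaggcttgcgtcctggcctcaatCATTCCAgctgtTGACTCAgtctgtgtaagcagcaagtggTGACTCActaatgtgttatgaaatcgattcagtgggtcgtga
Srsf9, chr5:115319692-115319891, + strand: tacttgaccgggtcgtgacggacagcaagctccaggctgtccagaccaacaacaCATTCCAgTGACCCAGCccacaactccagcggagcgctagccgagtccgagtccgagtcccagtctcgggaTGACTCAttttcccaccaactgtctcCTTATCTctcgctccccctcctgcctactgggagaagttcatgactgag

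The *Creb3l1* window lay in an intron of that gene, which encodes a membrane-bound transcription factor of the endoplasmic reticulum, and held 2 AP-1 matches and a TEAD match. The *Srsf9* window, between genes and 7173 bp from the start site of this splicing factor gene, held AP-1, NRF2, TEAD and GATA matches. The *Creb3l1* region ranked 50953 and 81126 at 0 hours and 10688 to 30629 after PHx, with a fold enrichment of 4.22 and 2.72 before and 5.43 to 7.67 after. The *Srsf9* region ranked 52145 and 51068 at 0 hours, just past the limit, and 14708 to 31401 after PHx. Its fold enrichment was 6.55 and 5.91 at 0 hours, 9.95 and 11.2 at 48 hours, 12.6 and 12.3 at 72 hours, and 13.4 and 7.77 at 96 hours.

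None of the 260 lacked a peak in both full 0 hour lists. All 260 had a peak in the full list of 0 h replicate 1 and 231 in that of 0 h replicate 2. Their median rank was 57020 and 62230 at 0 hours, 33472 and 34160 at 48 hours, 34308 and 30030 at 72 hours, and 35139 and 34294 at 96 hours. The gain as defined here is a rise past rank 50000. Peaks were called at p 0.01, and the peaks of these regions in 0 h replicate 1 had a −log10 p of 4.19 to 15.2. In 0 h replicate 2 it was 2.54 to 9.95, and in 48 h replicate 1 rank 50000 fell at 8.05. This measure grows with read depth, and whether a site was open at 0 hours is not settled by these lists. The weakest rank after PHx was worse than 45000 in 142 regions, and the better of the 0 hour ranks was under 55000 in 136. Both held for 69 regions, which lay near the limit on either side. Only 11 regions ranked 40000 or better in all 6 later lists and worse than 60000 in each 0 hour list that held them.

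The regions nearest to the limit show how fine it was. Just inside, a region near *Cog1* ranked 50001 in 0 h replicate 2, and a region near *Mtcl1* ranked 49919 in 72 h replicate 1. Just outside, a region near *Afap1* ranked 49975 in 0 h replicate 1, and a region near *Mpp6* ranked 50115 in 72 h replicate 1. A further 1567 regions were covered in all 6 later lists and in 1 of the 0 hour lists, 1210 of them in 0 h replicate 1 and 357 in 0 h replicate 2. Another 650 were in neither 0 hour list and in 5 of the 6 later lists, and the missing list was most often 96 h replicate 2 (162 regions) and least often 72 h replicate 2 (54 regions).

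**Figure D3:**
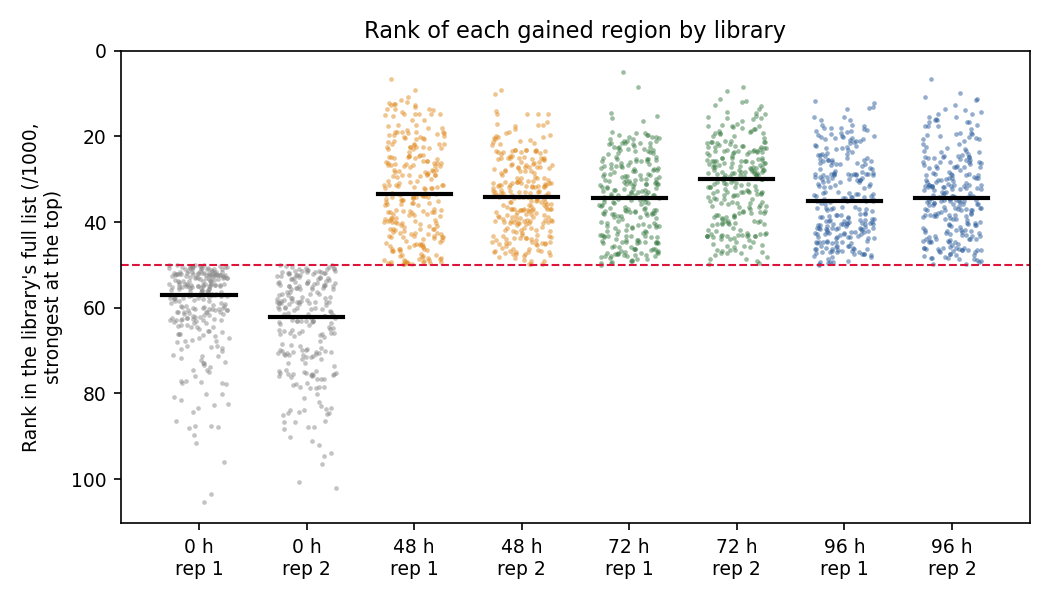
Rank of each of the 260 gained regions (points, divided by 1000 on the axis, strongest at the top) in the full list of each of the 8 libraries. Black lines mark the medians and the red dashed line rank 50000, the limit of the rule. The medians lie at 57020 and 62230 at 0 hours and between 30030 and 35139 after PHx, and 29 regions have no point in 0 h replicate 2.

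Peak heights followed the ranks less sharply. The median fold enrichment of the gained regions was 5.57 and 4.64 at 0 hours, 6.15 and 6.69 at 48 hours, 8.01 and 8.17 at 72 hours, and 8.11 and 6.95 at 96 hours. Among the 231 regions with a value in all 8 libraries, all 6 later values were above both 0 hour values in 123, where 1.35% of the 55118 consensus regions with 8 values met this. The median −log10 p was 12.3 and 6.88 at 0 hours and 12.2 to 24.7 after PHx, so 0 h replicate 1 was level with 48 h replicate 1 on this scale. All 6 later −log10 p were above both 0 hour values in 86 of the 231 (0.798% of the 55118). The rule used this contrast, so nothing is read from these counts.

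The order of the gained regions within each later list differed by library. The best of a region's 6 later ranks fell in 48 h replicate 1 and in 72 h replicate 2 for 60 regions each, and in 48 h replicate 2 for 28. The worst fell in 72 h replicate 1 for 53 regions and in 72 h replicate 2 for 23. No library thus held most of the best or of the worst ranks.

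The comparison between the times after PHx asks whether the gained regions kept their level from 48 to 96 hours, and the rule favours no later time over another. It does limit the comparison: every region tested had to stand among the 50000 strongest peaks of all 6 libraries compared, so regions that fell below that rank at any later time were left out, and small differences and few calls follow in part from this selection. The log2 fold enrichment was quantile-normalised and fitted with limma over all 30350 regions covered in the 6 later lists. No gained region passed an adjusted p of 0.05 (Benjamini-Hochberg) in any of the 3 comparisons, and neither did any other region (0% called). The median log2 difference of the gained regions was 0.03 for 72 against 48 hours, −0.01 for 96 against 48 hours and −0.06 for 96 against 72 hours, against −0.01, 0 and 0 over all regions tested, with a median standard error of 0.25 for a gained region. The differences ran from −0.87 to 0.77, from −0.78 to 0.71 and from −0.68 to 0.68. An unadjusted p under 0.05 was reached by 13 gained regions (5%) for 72 against 48 hours, where 6.36% of all regions reached it, by 26 (10%) for 96 against 48 hours, where the share was 6.55%, and by 7 (2.69%) for 96 against 72 hours, where it was 3.25%. Of the 26, 12 were higher at 96 hours and 14 lower. Regions are not replicates of a condition, so nothing is read from the 10% beside 6.55%. Without 48 h replicate 1, the median log2 difference of the gained regions for 96 against 48 hours was 0.01. With 2 libraries a time, a change of the size of that standard error could not be detected. Even the largest difference of a gained region, −0.87, did not pass (adjusted p 0.556 by limma). These values therefore do not show that the levels were equal.

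The regions with the smallest p in each comparison, chosen after their values were seen, show what such differences look like. A region near *Hmcn1*, an extracellular matrix protein gene (chr1:151034705-151035656), had a fold enrichment of 5.40 and 5.49 at 0 hours, 11.6 and 9.34 at 48 hours, 8.12 and 6.36 at 72 hours, and 7.27 and 7.60 at 96 hours. Its values at 48 hours were the highest of the 4 times, with a log2 difference of −0.87 ± 0.26 (SE) at 72 against 48 hours and an adjusted p of 0.556 by limma. A region near *Rap2a*, a small GTPase gene (chr14:120660272-120660674), had 5.41 and 4.22 at 0 hours, 6.77 and 5.96 at 48 hours, 7.44 and 8.40 at 72 hours, and 13.4 and 11.5 at 96 hours. It stood highest at 96 hours, with a log2 difference of 0.68 ± 0.25 (SE) against 72 hours and an adjusted p of 1 by limma. A region near *Krtap5-1* had the smallest p for 96 against 48 hours, with −0.78 ± 0.26 (SE) and an adjusted p of 0.579 by limma, and there 96 h replicate 2 (5.72) stood apart from 96 h replicate 1 (9.55).

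**Figure D4:**
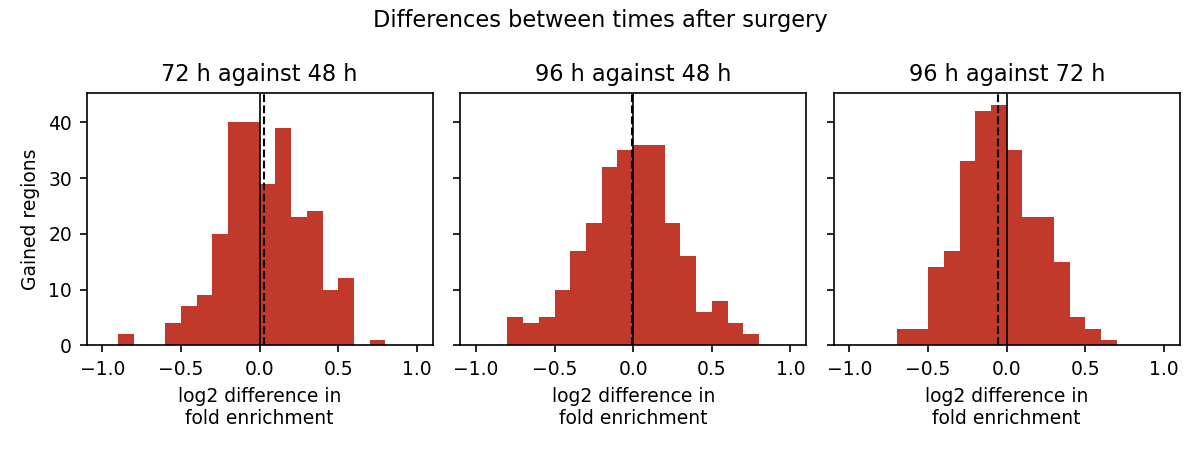
Number of gained regions (vertical axis) by their log2 difference in normalised fold enrichment (horizontal axis) between the times after PHx, in steps of 0.1. The solid line is 0 and the dashed line the median, at 0.03, −0.01 and −0.06 from left to right, and none of the 260 passed the test in any panel.

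The 10 gained regions that stood highest in their weakest list after PHx were mostly far from start sites. The top region lay 10595 bp from the start site of *Capn8*, a calpain protease gene, at chr1:182553837-182554412, in an intron of the annotated gene *Gm8197*. It ranked 51940 and 75148 at 0 hours, 20575 and 25062 at 48 hours, 21017 and 25662 at 72 hours, and 13551 and 17598 at 96 hours. The next lay in an intron of *Prune2* (chr19:17163351-17163956), 26585 bp from a start site, and its fold enrichment was 5.98 and 5.49 at 0 hours, 10.7 and 11.2 at 48 hours, 20.4 and 9.94 at 72 hours, and 14.3 and 13.1 at 96 hours. The 2 libraries at 72 hours differed widely there, with ranks of 4994 and 28598. Neither window held a match to any of the 19 motifs, and they are shown as 200 bases around the summit on the + strand of GRCm38.
Capn8, chr1:182554043-182554242, + strand: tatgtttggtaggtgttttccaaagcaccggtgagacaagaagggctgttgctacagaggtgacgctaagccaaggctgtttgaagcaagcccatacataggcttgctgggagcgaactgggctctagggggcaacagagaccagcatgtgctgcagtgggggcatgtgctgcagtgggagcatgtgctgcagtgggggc
Prune2, chr19:17163544-17163743, + strand: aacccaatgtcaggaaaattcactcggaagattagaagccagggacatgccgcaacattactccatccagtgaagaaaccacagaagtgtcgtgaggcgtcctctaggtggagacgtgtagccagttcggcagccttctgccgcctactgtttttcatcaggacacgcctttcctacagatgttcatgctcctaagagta

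A further 5 of the 10 were distal, among them the *Tal1* region described with the gene lists. The region near *Plekhb2* (chr1:34891453-34892043) lay between genes and ranked 68927 and 62867 at 0 hours and 18784 to 31444 after PHx. The region near *Kcnk18*, a potassium channel gene (chr19:59196233-59196783), ranked 53499 and 71260 before and 20351 to 29168 after. The region in an intron of *Fnbp1*, whose protein bends membranes in endocytosis (chr2:31092900-31093590), ranked 87504 and 63063 before and 22198 to 28946 after. The region in an intron of *4932414N04Rik* (chr2:68744635-68744958), which carries the CTCF match printed above, ranked 6481 and 9975 at 48 hours, 32135 and 31331 at 72 hours, and 15378 and 28954 at 96 hours. Its 48 hour ranks were the best of the times, while its fold enrichment was 13.4 and 13.0 at 48 hours and 14.6 in 96 h replicate 1, with a log2 difference of −0.82 ± 0.25 (SE) at 72 against 48 hours that did not pass (adjusted p 0.568 by limma).

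**Figure D5:**
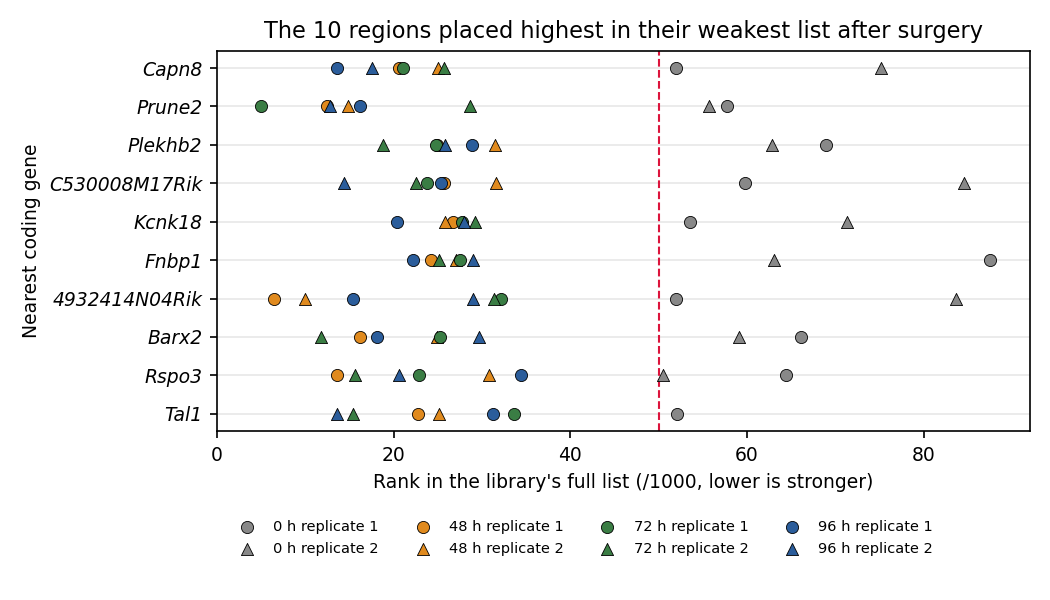
Rank in the full list of each library (divided by 1000 on the axis, lower is stronger) for the 10 gained regions that stood highest in their weakest list after PHx, named by the nearest protein-coding gene. Colours mark the time and symbols the replicate, and the red dashed line is rank 50000. The *Rspo3* region lies close to the line in 0 h replicate 2, at 50480, and the *Tal1* region has no point there because it was not listed.

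A start site of any transcript lay within 1 kb of 36 (13.8%), against 23.9% of all consensus regions, 14.6% of regions covered in 6 of 8 lists and 40.4% of regions covered in all 8. This direction turned with other ways of keeping peaks, with 20.1% of members against 12.5% of all regions at q under 0.05 and 16.1% against 10.7% with all peaks. With all peaks the share of all regions thus fell from 23.9% to 10.7%, while that of members went from 13.8% to 16.1%. The share was 29.3% against 33.0% with 25000 peaks. A further 118 (45.4%) lay in introns, 91 (35.0%) between genes, 9 (3.46%, against 1.71% of all regions) in coding exons, 4 in UTR exons and 2 in noncoding exons. The coding exons were those of *Zeb2*, *Col16a1*, *Psmg1*, *Arid1a*, *D6Wsu163e*, *Skor2*, *Rreb1*, *Zfp385a* and *Ap1g1*, and the regions in *D6Wsu163e*, *Rreb1* and *Ap1g1* held a CTCF match. The median distance to a protein-coding start site was 29250 bp, against 17314 bp for all regions and 21466 bp for those covered in 6 of 8 lists. Windows with 10 or more CpG, as in CpG islands, made up 13.5% (35 regions), against 18.1% of all consensus regions, 35.1% of regions covered in all 8 lists, 8.65% of those covered in 6 of 8 and 3.51% of the lost regions. Median width (624 bp) and GC content (51.0%) were near those of all regions (636 bp and 51.0%).

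Within 1 kb of a protein-coding start site there were 29 gained regions. The region at the start site of *Barx2*, a homeobox transcription factor gene (chr9:31912749-31913850), had a fold enrichment of 5.12 and 5.07 at 0 hours, 8.71 and 8.35 at 48 hours, 10.8 and 12.9 at 72 hours, and 13.5 and 8.15 at 96 hours. All 6 later values were above both earlier ones. The region at the start site of *Rspo3*, the R-spondin that amplifies Wnt signals and that central vein endothelial cells supply in the liver (chr10:29535398-29536198), had 5.02 and 5.76 before, 9.67 and 7.17 at 48 hours, 9.65 and 10.6 at 72 hours, and 8.34 and 8.63 at 96 hours. The region at *C530008M17Rik* (chr5:76657413-76658413) had 5.69 and 3.38 before and 7.42 to 12.0 after PHx, and its window held 32 CpG.

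The region 576 bp from the start site of *Ptx3*, a pentraxin of innate immunity (chr3:66220486-66221271), ranked 87723 and 75569 at 0 hours and 15165 to 38370 after PHx. The region at *Itgb8*, an integrin subunit that activates latent TGF-beta (chr12:119237800-119239138), was not listed in 0 h replicate 2 and ranked 54903 in 0 h replicate 1, and it ranked 12621 to 42561 after PHx. The region at *Fgl2*, a fibrinogen-like protein with prothrombinase activity (chr5:21372426-21373309), likewise was not listed in 0 h replicate 2, and its fold enrichment of 6.55 in 0 h replicate 1 was above the 6.04 of 48 h replicate 1, so its groups overlapped on this scale, which is not normalised. The region at *Fat4*, a giant protocadherin of planar polarity (chr3:38887451-38888065), ranked 71264 and 66379 before and 12605 to 44613 after, and here the pair at 48 hours held both extremes.

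The start site regions of *Smim10l2a*, *Slco5a1*, *Cbln2*, *Gstm3*, *Tmem45b*, *Rcan1*, *Cnnm1* and *Ogfod2* completed the 15 that were named. *Gstm3*, a glutathione S-transferase gene (chr3:107968788-107969419), had a fold enrichment of 4.83 and 4.38 at 0 hours, 4.59 and 4.59 at 48 hours, 6.06 and 6.17 at 72 hours, and 5.17 and 6.12 at 96 hours, so that its 48 hour values lay between the 0 hour ones although its rank passed the limit. These values are not normalised, and the median of kept peaks was lower at 48 hours (6.70 and 7.21) than at 0 hours (9.35 and 8.88). *Rcan1*, a calcineurin inhibitor gene (chr16:92457583-92458146), had 5.69 and 5.91 before and 5.94 to 11.4 after, with the lowest and the highest later values at 48 and 72 hours. *Tmem45b* (chr9:31463856-31464529) had 5.41 and 5.74 before and 6.40 to 12.0 after, with 11.5 and 12.0 at 72 hours. The largest difference between times among the 15 was that of *Tmem45b* at 96 against 72 hours, a log2 difference of −0.49 (adjusted p 1 by limma).

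The gained regions lay next to genes of liver regeneration about as often as open chromatin at large. The nearest protein-coding start site belonged to the adult hepatocyte list in 1 region (0.385%, *Foxa2*, 242156 bp away), to the cell cycle list in 1 (0.385%, *Mki67*, 578082 bp away), to the growth signalling list in 2 (0.769%, *Tead4*, 17410 bp, and *Tgfb2*, 118022 bp), and to the AP-1 and immediate early, progenitor or fetal, and cytoskeleton and adhesion lists in none. All consensus regions had shares of 0.484%, 0.359%, 0.761%, 0.270%, 0.328% and 0.197% for these lists, and counts this small say nothing particular about the gained regions. The region near *Tead4*, a Hippo pathway transcription factor (chr6:128318223-128318704), had a fold enrichment of 6.26 and 5.91 at 0 hours and 6.81 to 8.91 after PHx. The region near *Tgfb2*, a ligand of the TGF-beta family, which restrains hepatocyte division (chr1:186586830-186587678), had 5.25 and 3.80 before and 5.20 to 8.73 after, and held an HNF4 match. The region assigned to *Foxa2*, a pioneer factor of the liver (chr2:147803579-147803792), had 5.43 and 5.57 before and 7.06 to 7.72 after, and held an AP-1 match. At such distances the nearest gene need not be the one a region acts on.

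Lists for other liver cells took 3 gained regions (1.15%, against 0.368% of all consensus regions), near *Rspo3* (endothelial), *Csf1r* (macrophage) and *Tal1* (lymphocyte or red cell). The region near *Csf1r*, the receptor for macrophage growth factor, lay 27944 bp from its start site in an intron of *Pdgfrb* on chromosome 18. It was not listed in 0 h replicate 2, ranked 50480 in 0 h replicate 1 and ranked 27848 to 47037 after PHx. The *Csf1r* start site itself had no kept peak in any library. The *Tal1* region, 21013 bp from the start site of this transcription factor gene of blood-forming cells, lay in an intron of *Stil*. It ranked 52088 in 0 h replicate 1, was not listed in 0 h replicate 2, and ranked 13626 to 33655 after PHx. In these bulk libraries a higher share of another cell type and more open chromatin in hepatocytes cannot be told apart.

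The gained regions were scattered. Their nearest protein-coding genes numbered 254, and 5 genes were nearest to more than 1 region: *Arhgap26* had 3, all in its introns, and *Crim1*, *Fbxw7*, *Pid1* and *Stk24* had 2 each. Another gained region lay within 50 kb of 14, and a lost region within 50 kb of 4. The introns of *Stk24*, a kinase gene, held a region whose ranks after PHx ran from 11883 to 33116 (chr14:121315498-121316390) and another whose ranks ran from 18981 to 47059 (chr14:121339844-121340509). The gained regions lay on all 19 autosomes, with 25 on chromosome 2 and 3 on chromosome X.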

How the data were processed

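Bulk ATAC-Seq peak lists of 8 hepatocyte libraries were used, 2 for each of 4 times. Per the labels and the study's methods, the authors aligned reads to mm10 with Bowtie2 in the ENCODE ATAC-Seq pipeline, removed duplicates, and called peaks in each library alone with MACS2 at p 0.01, keeping at most 300000 and removing blacklisted regions. Tool versions are not given in the sources used here. The deposited lists give each peak a fold enrichment over local background (a ratio) and a −log10 p. They also hold a −log10 q and a display score made from the p-value; the −log10 q served in an alternative and the display score was not used. Overlapping summits of the same interval were collapsed to the highest −log10 p on chromosomes 1 to 19 and X, and lists were merged at 1 bp overlap. A fixed number of 50000 peaks was kept per list because −log10 p grows with read depth, which the lists do not give. The members, gene lists, motifs and tests were chosen with earlier results of these data known.

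Regions were annotated with GENCODE mouse release 21 and sequences read from RefSeq GRCm38.p6, the same build as mm10, with 0 intervals past a chromosome end. Promoters lay within 1 kb of a start site. The 19 motifs were searched on both strands in 200 bp around the summit of a region's strongest kept peak. The strongest interval gave a region's value in each library. Log2 fold enrichment in the 6 libraries after surgery was quantile-normalised and fitted with limma 3.58.1 (R 4.3.3; time only, trend, two-sided, Benjamini-Hochberg), with no pseudocount. This stands in for the study's own test, which used read counts. The fit and the member rule were tested on simulated data.

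Named regions were the 10 members whose within-list percentile was highest in the weakest library after surgery, up to 15 members at protein-coding start sites by the same measure, members nearest to a listed gene, and members called between times (0). Printed windows came from the first set and from members with a CTCF or AP-1 match, none from chromosome 18. The short CTCF matches were added for display. Only some of these windows are printed, and the others are not reported here. Alternatives changed the number of peaks kept, the merging, the coverage needed, the window, the scale of the fit, the libraries used and the replicate block.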

Additional observations from a re-analysis of the deposited data

How the results depend on the processing

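The number of members was 174 with 25000 peaks kept, 386 with all peaks, 318 with q under 0.05, 187 where at least 50% of a region had to be covered and 305 with 200 bp around each summit. It was 0 when regions also had to be absent from both full 0 h lists. None of the members found with 25000 peaks, all peaks or q under 0.05 overlapped the 260 regions, while 88 of the 260 were found with 50% coverage and 243 with summits. Leaving out each library in turn gave 312 to 1470 members, of which the libraries that moved it most were 0 h replicate 1 (1470 members when it was left out), 0 h replicate 2 (621), 96 h replicate 2 (422) and 48 h replicate 1 (398).

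The CTCF share of members stayed above that of all consensus regions under each list setting. It was 25.3% against 10.3% with 25000 peaks, 8.55% against 3.15% with all peaks, 9.75% against 4.06% with q under 0.05, 18.7% against 9.37% with 50% coverage and 14.8% against 8.40% with summits. It was 15.8% to 20.5% with each library left out. With 1 letter off allowed, chosen after seeing the data, it was 48.5% against 26.4% of all regions and 9.02% of lost regions. The HNF4 share stayed below that of all regions with 25000 peaks (5.17% against 9.16%), all peaks (3.63% against 7.56%), q under 0.05 (2.83% against 8.15%) and summits (4.92% against 9.64%), but not with 50% coverage (10.7% against 10.1%). It was 5.45% to 7.35% with each library left out. In a 400 bp window the HNF4 share of members was 10.0%, and that of all regions in such a window was not computed. The promoter share was below that of all regions with 25000 peaks (29.3% against 33.0%) and summits (23.0% against 26.4%), above it with q under 0.05 (20.1% against 12.5%) and all peaks (16.1% against 10.7%), and 12.6% to 17.7% with each library left out. The AP-1 share was above that of all regions with q under 0.05 (10.1% against 5.42%) and all peaks (9.33% against 5.16%), below it with 25000 peaks (4.02% against 5.23%), and 5.15% to 8.78% with each library left out. The causes of these shifts were not tested.

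In the fits between times, 0 members were called under all 33 alternatives, including each library left out (0 to 0), where a lone library was assumed to vary like the others. Over all regions, 6 were called for 96 against 48 h with −log10 p and 3 with percentiles, 1 each for 72 against 48 h and 96 against 72 h without 72 h replicate 1, and 2 for 96 against 72 h without 96 h replicate 1, with 0 in the other fits. Replicate numbers did not pair the libraries: same-number residuals correlated at 0.0151, −0.0511 and −0.0455. With a replicate block 0 members were called in each comparison, and 13, 25 and 7 reached an unadjusted p under 0.05. Without 96 h replicate 1, 23 members (8.85%) reached it for 96 against 72 h, and 9.05% of all regions did. Peak lists hold no depth, and with 2 libraries a time small differences cannot be seen.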
